A study of Mus musculus with 4 samples.

Results

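Ribosomal protein pseudogenes are genomic copies of the genes that encode the protein subunits of the ribosome. Most arose when a spliced ribosomal protein mRNA was reverse transcribed and inserted elsewhere in the genome, so that the copy carries the coding sequence of its parent without introns and without the parental promoter. Mammalian genomes hold very many of them, because ribosomal protein mRNAs are abundant in the germ line, and their near identity to the parent makes short reads from copy and parent hard to separate. Here the rows of the deposited table were taken whose gene symbol is that of a cytoplasmic ribosomal protein gene followed by "-ps" and a number, as in *Rps6-ps4*. Of 56883 rows in the table, 322 carried such a name, 126 of them had no read in any library and 147 had reads but a mean normalized count below 10. The remaining 49, chosen by their mean normalized count (10 or more across the 4 libraries), are the pseudogenes described here.

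The libraries hold total RNA of tdTomato-positive cells sorted from the basal telencephalon at E14.5. Control cells came from *Sst-Cre/tdTomato* embryos and *Dnmt1* KO cells from *Sst-Cre/tdTomato/Dnmt1 loxP2* embryos, in which Cre, made under control of the *Sst* locus, excises the floxed part of *Dnmt1* after the interneuron has left the cell cycle. Both genotypes carry *Sst-Cre* and the tdTomato reporter. Each genotype had 2 libraries, each made from cells pooled over several embryos, and 50000 cells were pooled per genotype. The recovered reads per library ranged from 6970247 to 8376711. A normalized count is the number of reads of a gene divided by 1 size factor for its library, and 1 read stands for a normalized count of 0.895 to 1.09, depending on the library. All p-values concern these pools, not single embryos. In limma, the spread of each gene between pools was drawn toward that of genes at a similar level. *Dnmt1*, which encodes the DNA methyltransferase deleted in the knockout, had normalized counts of 2238 and 2341 in control and 2164 and 2210 in *Dnmt1* KO libraries (limma's adjusted p = 0.461). Gene-level counts cannot tell a transcript that lacks the floxed exons from one that has them. All 7 interneuron markers (*Sst*, *Lhx6*, *Gad1* and *Gad2* among them) were expressed and higher in *Dnmt1* KO cells.

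The 49 pseudogenes comprised 27 copies of large subunit and 22 copies of small subunit genes, and they named 35 parents. Of these, 25 parents had 1 copy among the 49, 7 had 2 copies and 3 (*Rpl10*, *Rpl17* and *Rps18*) had 3 or more. All 49 were annotated with 1 exon. GENCODE listed 31 as processed pseudogenes, 14 as transcribed processed pseudogenes and 4 (*Rpl10-ps3*, *Rplp2-ps1*, *Rpl9-ps6* and *Rps18-ps6*) as protein-coding genes. They were spread over 17 chromosomes, with 1 of 49 on the chromosome of its parent. Their annotated length ran from 321 to 1210 bases, with a median of 555.

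The pseudogenes were close copies. Aligned to the main transcript of the parent, 39 of 49 matched it at 99% of aligned positions or more, and the median identity was 99.53%. In 40 of 49, a reading frame from the parental start codon was as long in codons as that of this parental transcript. A further 7 had a shorter frame and 2 had no start codon aligned to the parental one. In *Rps12-ps3*, the alignment had no mismatch but covered 86.49% of the parental coding sequence, without the parental start codon. These frame counts depend on the transcript that stands for the parent. The following 75-base stretches of the coding sequence (75 bases is the read length of the libraries) show the range, with bases in which the pseudogene differs from its parent in capitals. Each is given from 5′ to 3′ on the strand of the gene, in GRCm39. *Rps6-ps4*, the most abundant of the 49, had no mismatch to *Rps6* over its 750 bases, and the first 75 coding bases are shown. It lies on the minus strand at chr2:75021417-75022166, in an intron of *2600014E21Rik* on the opposite strand.
Rps6: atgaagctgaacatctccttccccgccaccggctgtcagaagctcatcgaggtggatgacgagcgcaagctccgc
Rps6-ps4: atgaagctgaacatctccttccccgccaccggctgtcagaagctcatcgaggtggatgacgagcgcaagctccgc

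*Rpl14-ps1* and *Rpl13-ps6* are shown because their difference from the parent between genotypes was large for their precision and because they are not identical to it. The first differs from *Rpl14* by 4 mismatches and 3 gap positions, the second from *Rpl13* by 3 mismatches over 636 bases. The stretches below, at coding bases 349 to 423 and 544 to 618, hold 2 mismatches each, the highest number in any stretch of this length. They lie on the plus strand at chr7:44974737-44974811 and chr3:58895134-58895208.
Rpl14: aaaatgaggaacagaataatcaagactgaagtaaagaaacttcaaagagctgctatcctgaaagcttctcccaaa
Rpl14-ps1: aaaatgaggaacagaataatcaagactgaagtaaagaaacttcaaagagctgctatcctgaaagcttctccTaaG
Rpl13: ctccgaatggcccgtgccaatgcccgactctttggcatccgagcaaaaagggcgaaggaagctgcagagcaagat
Rpl13-ps6: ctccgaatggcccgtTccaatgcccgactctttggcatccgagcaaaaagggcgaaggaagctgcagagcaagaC

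*Rpl36a* had 2 copies among the 49 at opposite ends of the range. *Rpl36a-ps2* was identical to it over 321 bases, whereas *Rpl36a-ps3* differed at 40 of 321 positions (identity 87.54%, the lowest of the 49) and shared 69.64% of its 75-base windows with another gene, *Rpl36al*, a related ribosomal protein gene, and 0% with *Rpl36a*. Coding bases 106 to 180 are shown. The stretches lie at chr3:145584880-145584954 for *Rpl36a-ps2* and at chr6:136465910-136465984 for *Rpl36a-ps3*, both on the plus strand.
Rpl36a: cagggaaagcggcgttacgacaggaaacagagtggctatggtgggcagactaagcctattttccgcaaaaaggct
Rpl36a-ps2: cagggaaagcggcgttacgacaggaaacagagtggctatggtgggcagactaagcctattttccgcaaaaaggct
Rpl36a-ps3: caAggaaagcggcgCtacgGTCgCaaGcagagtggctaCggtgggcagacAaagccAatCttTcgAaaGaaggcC

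The overlap of single reads with other genes was measured from these sequences. The libraries were sequenced in pairs of 75-base reads, and each window stands for 1 read without its mate. Of the 49 pseudogenes, 11 had no mismatch to the parent and every 75-base window of their annotated transcript also occurred in a parental transcript (*Rps6-ps4*, *Rps23-ps1*, *Rpl36a-ps2*, *Rpl31-ps8*, *Rpl27-ps3*, *Rpl10a-ps1*, *Rpl15-ps3*, *Rpl28-ps1*, *Rps16-ps2*, *Rps12-ps3* and *Rpl10-ps1*). A read of this length from them has no base that separates it from the parent, and their counts are uncertain for that reason. In the other 38, the median share of windows was 66.5% in the parent and 80.5% in any other annotated gene, and their counts are uncertain in part as well. Of these, 12 shared under 50% of their windows with the parent. When all other annotated genes were included, 17 of the 49 had every window in at least 1 of them, and the lowest share was 11.54%, in *Rps15-ps2*. Copies of the same parent share windows with each other as well, and the 49 counts are therefore not independent of one another.

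Together the 49 pseudogenes held normalized counts of 4515 and 4441 in control and of 2584 and 2620 in *Dnmt1* KO libraries, with means of 4478 ± 52.1 and 2602 ± 25.3 (SD, n = 2 each). The knockout total was 0.581 of the control total, and the libraries of the genotypes did not overlap. The same total over all 322 rows with such names, which does not depend on the minimum level, was 4950 and 4844 in control and 2892 and 2888 in *Dnmt1* KO libraries, a ratio of 0.59. In the 273 rows below the minimum the totals were 436 and 403 against 308 and 268, and of the 147 such rows with a read, 98 had a higher mean in control and 49 in *Dnmt1* KO cells. The totals of the 35 parents were 81872 and 82389 in control and 69535 and 70089.9 in *Dnmt1* KO libraries, a ratio of 0.85, so that the pseudogenes amounted to 5.51% and 5.39% of the parental count in control and 3.72% and 3.74% in *Dnmt1* KO libraries. In bulk libraries, fewer cells of a type that holds such RNA and less of it per cell cannot be told apart.

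The genotypes were compared gene by gene on log2(normalized count + 1) with limma, over 14323 genes that averaged 10 normalized counts or more, with Benjamini-Hochberg adjustment at 0.05. The added 1 understates the change of low genes with even libraries, whereas a library at or near 0 gives a larger fitted value than the ratio of the genotype means. For *Rpl10-ps5* the fitted value was -1.35 and the log2 ratio of the means -0.08, and for *Rps12-ps3* these were -2.03 and -0.61. Of the 49 pseudogenes, 22 were lower in *Dnmt1* KO cells at that threshold, against 8.99% of all genes tested. None was higher, against 8.3% of all genes tested, and none was higher at an unadjusted p below 0.05. The log2 fold change was negative in 47 of 49 and had a median of -0.88, where the median over all genes tested was -0.0033. The median of the log2 ratios of the genotype means was -0.74. The libraries did not overlap in 38 of 49, all lower in *Dnmt1* KO cells, against 29% of all genes tested. In the plot of values by library, these are the genes in which both knockout symbols lie to the left of both control symbols.

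**Figure D1:**
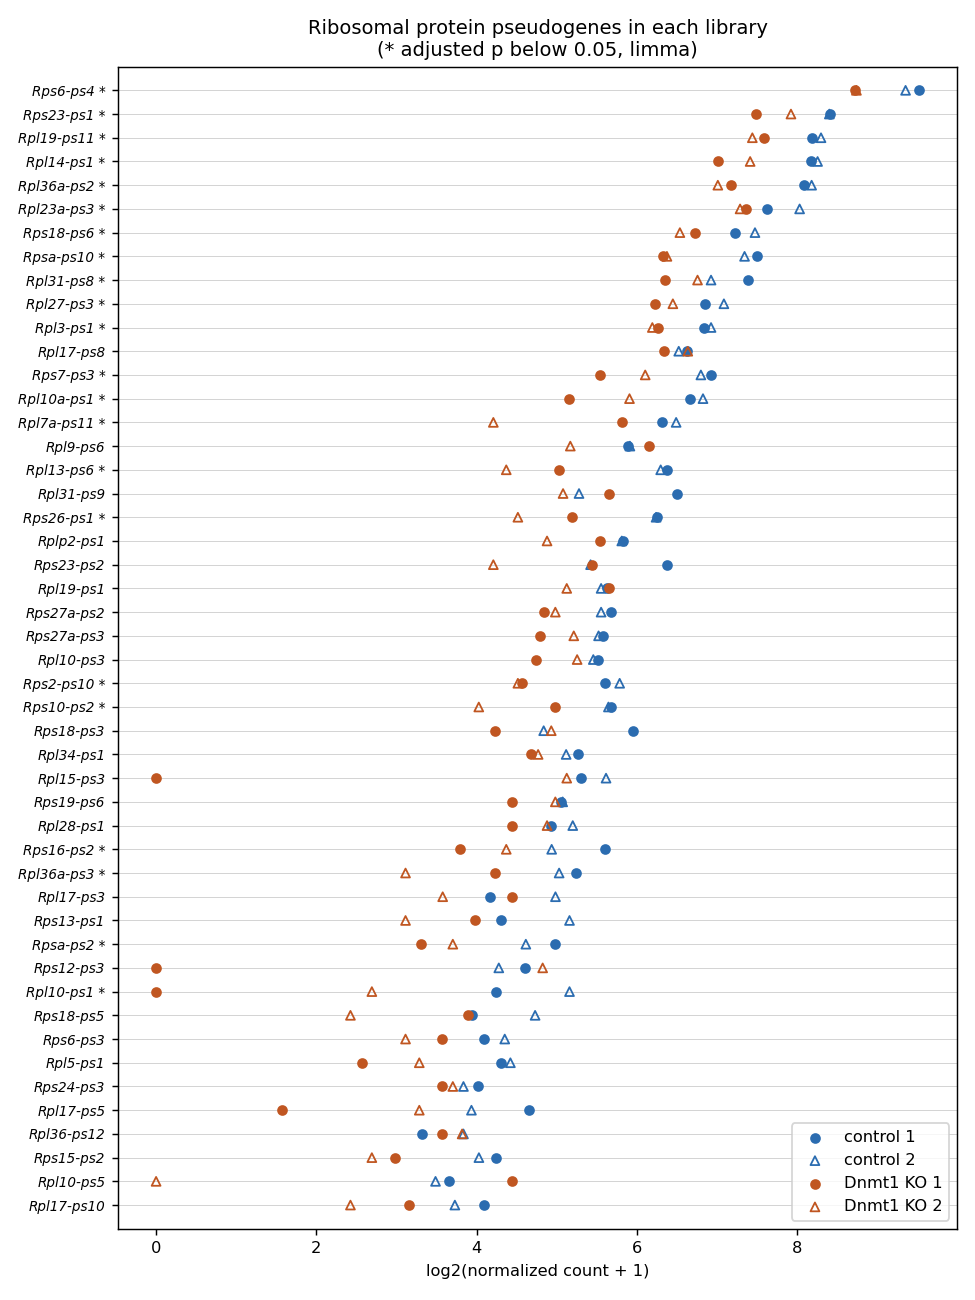
Normalized counts of 48 of the 49 ribosomal protein pseudogenes in each library, on a log2(normalized count + 1) axis, ordered by mean. Blue symbols are control and orange symbols *Dnmt1* KO libraries, with filled circles for replicate 1 and open triangles for replicate 2. An asterisk marks the 22 pseudogenes with an adjusted p below 0.05, and 4 symbols lie at 0, each of them a *Dnmt1* KO library.

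The number passing the test depended on the level. All 10 pseudogenes that averaged 100 or more were called, 6 of the 9 between 50 and 100 and 6 of the 30 below 50, where 1 read more or less moves the value most. The share of all genes called at each of these levels was not computed, so these counts cannot be set beside those of other genes at the same level. The same holds for the calls in parts of the 49 given below. No pseudogene had a control mean below 10, while 7 had a *Dnmt1* KO mean below 10 and reached the minimum through the control libraries, in which they were high. Without these 7 (a count made after seeing the data), 21 of 42 were called and the median log2 fold change was -0.71. With DESeq2 on the recovered reads, 11 pseudogenes were called lower, against 4.8% of all genes tested. The call also rested on single libraries in part. Without control replicate 1, 12 pseudogenes were called (5.49% of all genes tested), and without control replicate 2 also 12 (5.15%). In 8 pseudogenes (*Rps6-ps4*, *Rps23-ps1*, *Rpl19-ps11*, *Rpl14-ps1*, *Rpl36a-ps2*, *Rpsa-ps10*, *Rpl13-ps6* and *Rps26-ps1*) the call held with each of the 4 libraries left out in turn, with edgeR and DESeq2 on the recovered reads and after removal of the trends over transcript length and GC content. In limma without the variance trend none of the 49 was called, and no gene of the whole table, with adjusted p-values of 0.0592 to 0.14 for these 8. Among the 8, *Rps6-ps4*, *Rps23-ps1* and *Rpl36a-ps2* are identical to their parent, and no fit changes how their reads were assigned. The others of the 8 shared from 67.87% (*Rps26-ps1*) to 85.49% (*Rpl19-ps11*) of their 75-base windows with other genes.

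The most abundant pseudogenes copy both subunits. *Rps6-ps4* copies the gene of a small subunit protein that is phosphorylated by S6 kinase. Its normalized counts were 735 and 652 in control and 421 and 426 in *Dnmt1* KO libraries, or 694 ± 58.2 and 424 ± 3.49 (SD, n = 2 each). The knockout libraries were both lower than both controls, and the log2 fold change was -0.71 (SE 0.09, limma's adjusted p = 5.73e-05). *Rps6* itself had 3157 and 3211 in control and 2685 and 2717 in *Dnmt1* KO libraries, with a log2 fold change of -0.24 (SE 0.05, limma's adjusted p = 0.00363). The difference between copy and parent was -0.47 with a standard error of 0.10, in which the errors of the 2 genes are added as if independent. Since *Rps6-ps4* is identical to *Rps6*, these values depend on how shared reads were divided between them, and the errors need not be independent.

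*Rps23-ps1* copies a small subunit gene whose protein lies near the decoding site. It had 339 and 337 in control and 178 and 241 in *Dnmt1* KO libraries, a log2 fold change of -0.70 (SE 0.14, limma's adjusted p = 0.00227). The 2 knockout libraries lay further apart than the 2 controls, without reaching them. *Rpl19-ps11*, a copy of a large subunit gene, had 291 and 313 in control and 190.4 and 173 in *Dnmt1* KO libraries, a log2 fold change of -0.73 (SE 0.12, limma's adjusted p = 0.000638). It overlaps an exon of *Gm55064* on the same strand, which had no read in any library.

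*Rpl14-ps1* and *Rpl36a-ps2*, copies of large subunit genes, were lower by about the same amount as each other. *Rpl14-ps1* had 287 and 304 in control and 128 and 169 in *Dnmt1* KO libraries, a log2 fold change of -0.999 (SE 0.14, limma's adjusted p = 0.000187). *Rpl36a-ps2* had 270.2 and 289 in control and 143 and 128 in *Dnmt1* KO libraries, a log2 fold change of -1.04 (SE 0.13, limma's adjusted p = 6.12e-05). Both knockout libraries were below both controls in each, whereas *Rpl14* (log2 fold change -0.22) and *Rpl36a* (-0.21) had values nearer to 0, and *Rpl36a* did not pass the test (limma's adjusted p = 0.0637). *Rpl14-ps1* lies in an intron of *Trpm4* on the opposite strand, whose counts of 13.4 to 18.4 did not differ detectably between genotypes (limma's adjusted p = 0.933). *Rpl36a-ps2* lies in an intron of *Ddah1* on the same strand, which differed by -0.22 on the log2 scale (SE 0.07, limma's adjusted p = 0.0614).

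Of the pseudogenes with a mean of 50 or more, *Rpl13-ps6* had the most negative log2 fold change. *Rpl13-ps6*, from a large subunit gene, had 82.3 and 77.6 in control and 31.6 and 19.7 in *Dnmt1* KO libraries (log2 fold change -1.64, SE 0.28, limma's adjusted p = 0.000911). *Rps26-ps1*, from a small subunit gene whose protein lies at the mRNA exit, had 75.2 and 74.5 against 35.5 and 21.9 (-1.39, SE 0.28, limma's adjusted p = 0.00303). *Rpl7a-ps11* had 78.7 and 88.8 against 55.2 and 17.5 (-1.39, SE 0.38, limma's adjusted p = 0.0193). In the last, the knockout libraries lay further apart from each other than the higher of them from the controls, and all 727 of its 75-base windows occur in other genes, 69 of which share at least 1.

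*Rpsa-ps10*, a copy of the gene of a small subunit protein also known as laminin receptor, had 179.9 and 161 in control and 78.9 and 81.9 in *Dnmt1* KO libraries (log2 fold change -1.07, SE 0.16, limma's adjusted p = 0.00031). *Rps7-ps3* had 119.9 and 110.3 against 45.4 and 67.7 (-1.04, SE 0.22, limma's adjusted p = 0.00418). *Rpl10a-ps1* had 100.2 and 112 against 34.5 and 59.0 (-1.21, SE 0.25, limma's adjusted p = 0.00346). In each of these 3, no knockout library reached a control library. The other called pseudogenes with a mean of at least 50 were *Rpl23a-ps3*, *Rps18-ps6*, *Rpl31-ps8*, *Rpl27-ps3* and *Rpl3-ps1*, with log2 fold changes from -0.72 to -0.51. Of these, *Rpl31-ps8* was nearest the threshold (166 and 120 in control, 80.9 and 107 in *Dnmt1* KO libraries, limma's adjusted p = 0.0477).

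Measured against the parent, most pseudogenes were lower. The log2 fold change lay below that of the parent in 42 of 49 and above it in 7, and the median difference was -0.65. In 27 of 49 it was lower than the parental one by over 2 standard errors and in none higher by that much, with 22 within 2 standard errors. With DESeq2 on the recovered reads, 11 of 49 were lower by that much. These standard errors add those of copy and parent as if independent, although reads shared between them were divided. Of the 22 called pseudogenes, 21 were among the 27, and the exception was *Rpl23a-ps3* (difference -0.30, standard error 0.16). Of the 27, 9 were among the 11 pseudogenes identical to their parent and 18 among the other 38. Parents had smaller differences of the same sign. All 35 had a negative log2 fold change, from -0.43 in *Rps24* to -0.07 in *Rpl10*, and 25 were called lower. After removal of the trends over transcript length and GC content, the parental median went from -0.22 to -0.07 with 6 of 35 called, and the median of the pseudogenes from -0.88 to -0.66 with 13 of 49 called, against 7.65% of all genes fitted. In that fit 11 of 35 parents had a positive log2 fold change, *Rpl13* and *Rps26* among them, beside 4 of 49 pseudogenes.

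**Figure D2:**
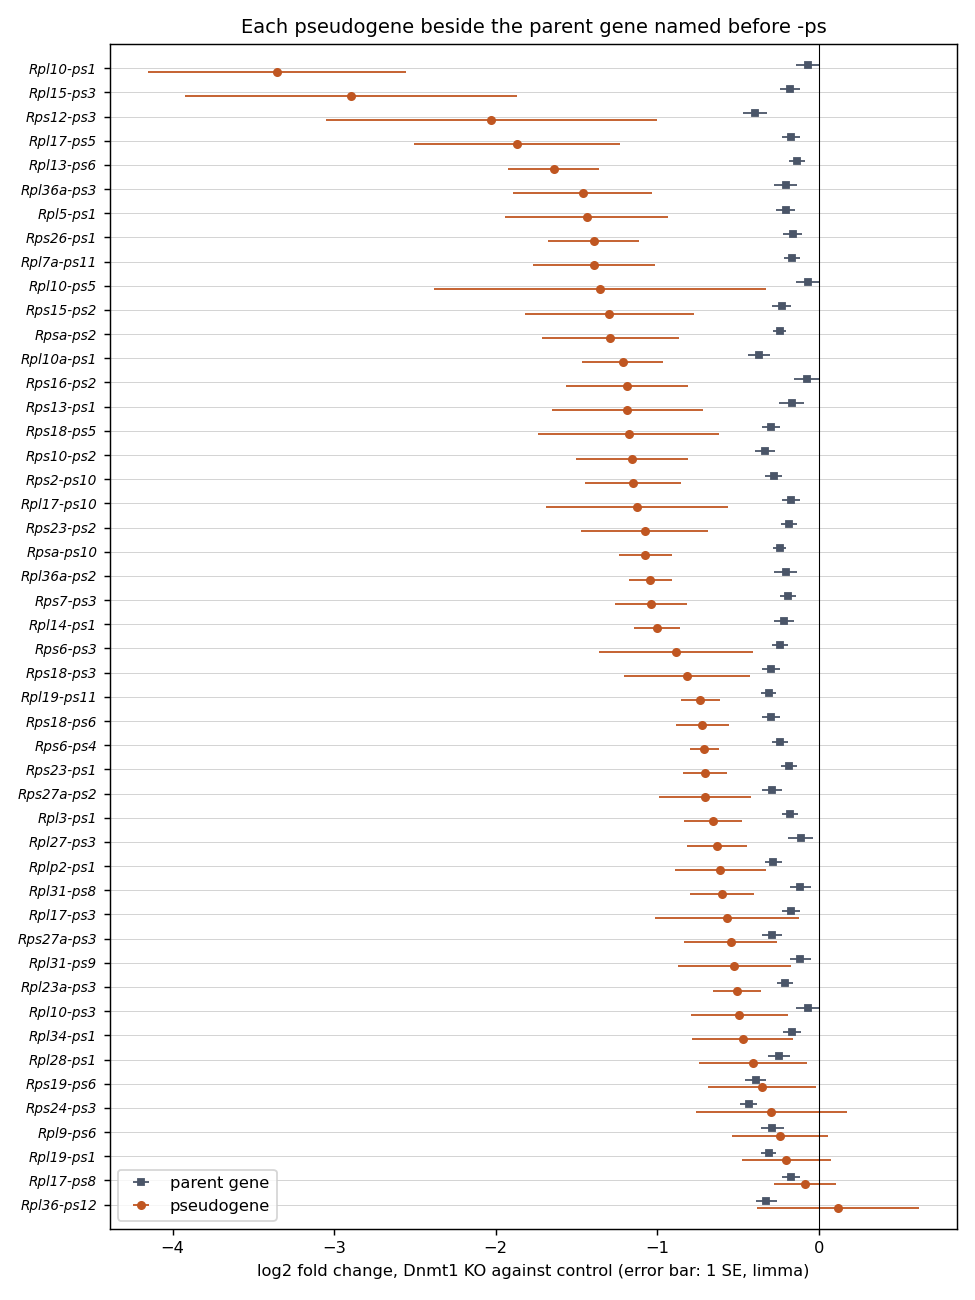
Log2 fold change (*Dnmt1* KO against control) of 48 of the 49 pseudogenes (orange circles) and of the parent gene named before -ps (grey squares), ordered by the pseudogene, with bars of 1 standard error from limma. The parents lie between -0.43 and -0.07, and 42 of these 48 pseudogenes lie to the left of their parent.

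The same values can be given as a level per length, in which the genotype difference is that between copy and parent on another scale. Divided by the length of the main annotated transcript, the median pseudogene had 4.99% and 4.94% of the level of its parent in control and 3.17% and 3.06% in *Dnmt1* KO libraries. For *Rps6-ps4*, the level per kb was 27.8% and 24.3% of that of *Rps6* in control and 18.8% in both *Dnmt1* KO libraries. For *Rpl36a-ps2* it was 34.5% and 34.3% against 19.3% and 19.1%, and for *Rpl13-ps6* 3.52% and 3.24% against 1.49% and 0.9%. The levels of *Rps6-ps4* and *Rpl36a-ps2*, identical to their parents, also rest on how shared reads were divided. The highest value, 117% for *Rpl31-ps8* in control replicate 1, depends on the length of 4122 bases given for the main transcript of *Rpl31*, beside 378 bases for the copy. All these percentages depend on such lengths, and a longer parental transcript raises them. The parental median was 954 bases, with 3646 for *Rpl5* and 3037 for *Rpl28*.

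Copies of the same parent could be compared with each other. The 4 copies of *Rpl17*, whose protein lies at the peptide exit of the large subunit, gave no call. *Rpl17-ps8* had 97.5 and 90.9 in control and 79.9 and 98.3 in *Dnmt1* KO libraries, which overlapped (log2 fold change -0.09, SE 0.19), and its sign turned with quantile normalization, after removal of the length and GC trends and without *Dnmt1* KO replicate 1. *Rpl17-ps5* had 24.2 and 14.3 against 1.97 and 8.74 (-1.87, SE 0.64, limma's adjusted p = 0.0568). These copies, the highest and the lowest of the 4, differed by 1.78 on the log2 scale with a standard error of 0.66. This standard error leaves out that the pair was picked as the extremes, and it treats both counts as independent. Of the 75-base windows of *Rpl17-ps5*, 68.81% also occur in *Rpl17-ps8*. *Rpl17-ps3* (log2 fold change -0.57) and *Rpl17-ps10* (-1.12) lay between them. *Rpl17-ps8* lies in an intron of *Heph* on the same strand, which had counts of 15.2 and 17.4 in control and 3.95 and 12 in *Dnmt1* KO libraries.

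The 3 copies of *Rps18*, a small subunit gene, all had negative log2 fold changes, from -1.18 to -0.72, and differed from each other by less than 1 standard error. Only *Rps18-ps6*, the most abundant, was called (149 and 177 in control, 105 and 91.8 in *Dnmt1* KO libraries, limma's adjusted p = 0.00692). *Rps18-ps3* had 60.9 and 27.6 against 17.8 and 29.5, and *Rps18-ps5* had 14.3 and 25.5 against 13.8 and 4.37. The 3 copies of *Rpl10*, whose protein joins the large subunit late in its maturation, had uneven libraries. *Rpl10-ps1* had 17.9 and 34.7 in control and 0 and 5.46 in *Dnmt1* KO libraries (-3.35, SE 0.80, limma's adjusted p = 0.00865), *Rpl10-ps5* had 11.6 and 10.2 against 20.7 and 0, and *Rpl10-ps3* had 44.7 and 42.9 against 25.6 and 37.1. The fitted fold change of *Rpl10-ps1* depends on the count added before the log and is no bound. All 571 windows of *Rpl10-ps1* occur in *Rpl10-ps3* as well as in *Rpl10*, and the sum of the 3 copies was 74.3 and 87.8 in control and 46.4 and 42.6 in *Dnmt1* KO libraries.

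A library at 0 occurred in 4 pseudogenes, *Rpl10-ps1*, *Rpl15-ps3* and *Rps12-ps3* in *Dnmt1* KO replicate 1 and *Rpl10-ps5* in *Dnmt1* KO replicate 2. A count of 0 allows up to 3 reads, or a normalized count of 2.96 and 3.28 in these libraries, for counting error only. It leaves out how reads shared with the parent were divided, and sets no bound for a copy identical to its parent. The other *Dnmt1* KO library held 33.9 for *Rpl15-ps3* and 27.3 for *Rps12-ps3*, so that the 2 knockout libraries differed by more than this allowance for counting error. Without *Dnmt1* KO replicate 1 the log2 fold change of *Rps12-ps3* turned to 0.38. Of the 4, 3 were identical to their parent, and without all 4 the median log2 fold change of the remaining 45 was -0.73, with 21 called, again as a count made after seeing the data.

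Neither of the 2 pseudogenes with a positive log2 fold change was called. One of them, *Rpl36-ps12*, had 8.95 and 13.3 in control and 10.8 and 13.1 in *Dnmt1* KO libraries, which overlapped (log2 fold change 0.12, SE 0.50, limma's adjusted p = 0.909). It lies on the same strand within *Sumf1*, whose annotated transcripts hold 94.94% of its 75-base windows, beside 38.92% in *Rpl36*. *Sumf1* did not pass the test (log2 fold change -0.82, SE 0.32, limma's adjusted p = 0.091).

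Of all 49, 18 overlapped no other annotated gene, 17 overlapped a gene on the same strand and 14 overlapped genes on the opposite strand only. Introns of same-strand genes held 14 pseudogenes, and of these 14 host genes 8 reached the minimum level, of which 1 was called higher and none lower. The libraries were made with a stranded kit, but whether reads were counted by strand is not given in the sources used here. A pseudogene cannot be told apart from unspliced host RNA in these counts.

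The log2 fold change was set beside the sequence shared with other genes. Across the 49 pseudogenes, Pearson's r of the log2 fold change was -0.02 with identity to the parent, -0.23 with the share of 75-base windows in the parent and -0.05 with the share in any other gene (Spearman's rho -0.03, -0.13 and 0.02), as a description over genes that share libraries, parents and sequence. The median log2 fold change was -1.04 in the 11 identical pseudogenes, of which 8 were called, -0.85 in the other 38, of which 14 were called, and -0.80 in the 12 that shared under 50% of windows with the parent, of which 3 were called. *Rpl36a-ps3*, which shared 0% with *Rpl36a*, had 36.7 and 31.6 in control and 17.8 and 7.65 in *Dnmt1* KO libraries (-1.46, SE 0.43, limma's adjusted p = 0.0284). *Rpl36al*, the gene closest to it, had 386 and 374 in control and 373 and 355 in *Dnmt1* KO libraries (-0.06, limma's adjusted p = 0.727).

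**Figure D3:**
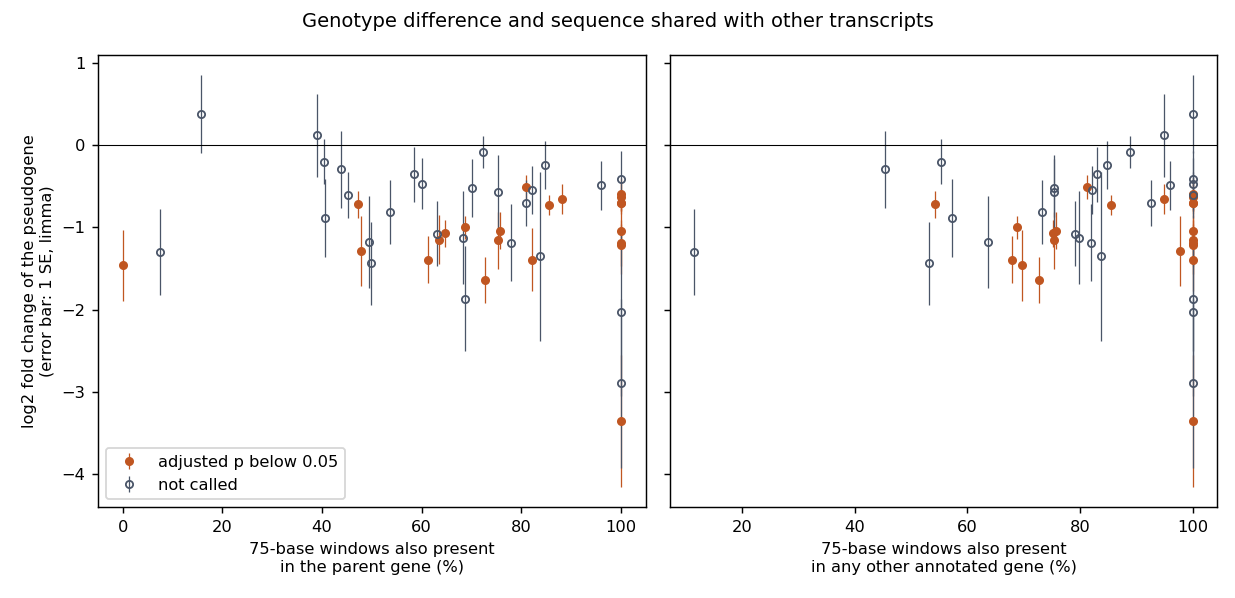
Log2 fold change of each pseudogene (bars, 1 standard error from limma) against the share of its 75-base windows that also occur in the parent (left) or in any other annotated gene (right). Filled orange points are the 22 called pseudogenes and open points the 27 others. Called pseudogenes occur from 0% to 100% of windows shared with the parent. The one at 0% is *Rpl36a-ps3*, with 69.64% of its windows in *Rpl36al*, and the next lowest is *Rps18-ps6* at 47.23%. No called pseudogene had under 54.21% of its windows in any other annotated gene.

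The other gene groups of translation had medians nearer to 0. Of 79 cytoplasmic ribosomal protein genes, 55 were called lower and 0 higher, with log2 fold changes from -0.52 (*Rpl37rt*, which was not called) to -0.02 (median -0.23), and 15 were called lower and 1 higher after removal of the length and GC trends. Of 24 translation factors and other genes with 5′ terminal oligopyrimidine mRNAs that were tested, such as *Eef1a1*, 12 were called lower and 0 higher (median -0.20, range -1.09 to 0.28), and the lowest value, in *Eif4ebp1*, did not pass the test (limma's adjusted p = 0.169). Of 25 genes of ribosome biogenesis, such as the nucleolar proteins *Ncl* and *Fbl*, 4 were called lower and 0 higher (median -0.11, range -0.66 to 0.24). Other rows annotated as processed pseudogenes, 413 of which were tested and some of which may be ribosomal protein copies under other names, included 84 called lower (20.3%) and 9 called higher, with a median of -0.36. The 90 other rows with a name in -ps, which copy genes of other families, included 16 called lower and 0 higher (median -0.41).

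**Figure D4:**
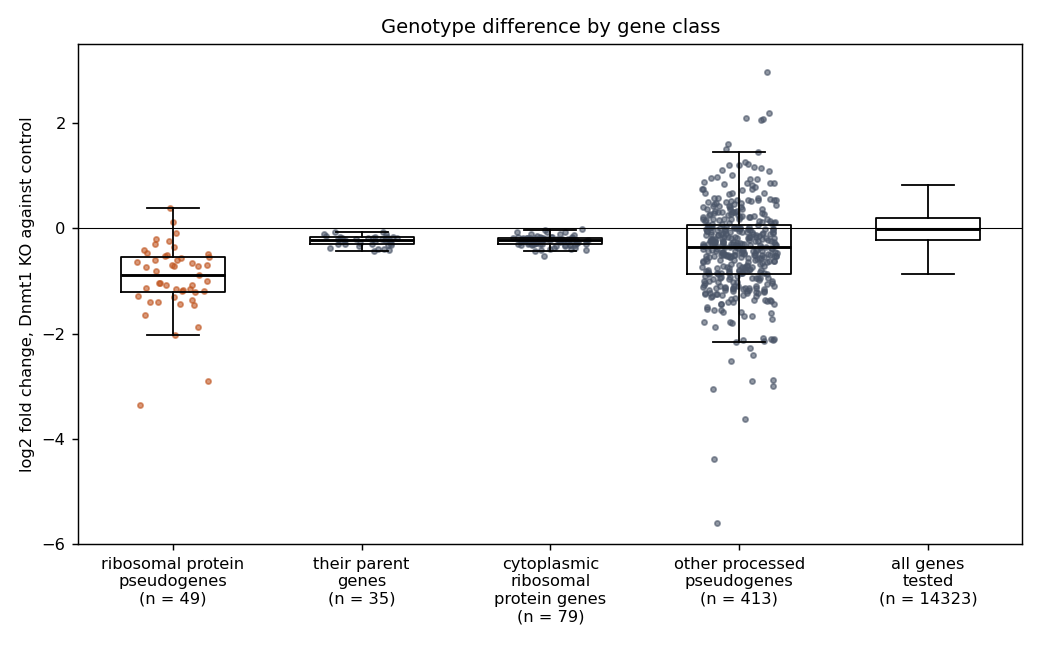
Log2 fold change (*Dnmt1* KO against control) by gene class, with each gene as a point except for all genes tested. Boxes span the quartiles with the median as a line, and whiskers reach the furthest value within 1.5 times the box. The medians are -0.88 for the 49 ribosomal protein pseudogenes, -0.22 for their 35 parents, -0.23 for 79 ribosomal protein genes, -0.36 for 413 other processed pseudogenes and -0.0033 for 14323 genes tested.

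Markers of other cells differed between the genotypes as well. The summed normalized count of the 8 blood markers tested of 12, among them globin genes, was 2605 and 2429 in control and 587 and 589 in *Dnmt1* KO libraries, with 8 of 8 called lower. The 8 markers of cycling cells summed to 8522 and 8201 against 5710.1 and 5763, with 8 of 8 called lower. Of 8 radial glia markers 6 were called lower and 1 higher (sums 10148 and 10242 against 6024 and 6226), of 6 markers of the excitatory lineage 5 lower (2336 and 2355 against 1366 and 1187), and of 7 tested markers of vascular cells, microglia and fibroblasts 6 lower (512 and 536 against 223 and 261). The 7 interneuron markers summed to 17757 and 18013 against 26864 and 27246. The part of these cells in the lower counts of the pseudogenes was not tested.

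The minimum level fell between genes of nearly the same count. Just inside it were *Rpl17-ps10* (mean 10.2), *Rpl10-ps5* (10.6) and *Rps15-ps2* (11.4), and just outside *Rpl10-ps6* (9.89), *Rpl3-ps2* (9.35) and *Rpl35a-ps6* (9.11). *Rps15-ps2* had 17.9 and 15.3 in control and 6.90 and 5.46 in *Dnmt1* KO libraries. *Rpl10-ps6*, which was not tested, had 10.7 and 10.2 against 9.86 and 8.74. *Rpl35a-ps6* had reads in replicate 1 of each genotype only, 19.7 in control and 16.8 in *Dnmt1* KO cells.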

How the data were processed

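Total RNA libraries of sorted tdTomato-positive cells (2 control and 2 *Dnmt1* KO, grouped by the sample labels) were used. The authors ran Trim Galore, STAR against GRCm39 and Salmon, and deposited a signal that holds, for each gene, the count after division by DESeq2's size factor. Every one of the 89965 nonzero values was a whole number times the unit of its library (tolerance 0.0001 of a read), which gave back whole counts. These counts are called reads here, though Salmon estimates them and divides reads shared between transcripts. The library kit was a stranded one, but whether counting used strand is not given in the sources used here.

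Genes averaging 10 or more were compared as log2(value + 1) by limma 3.58.1 in R 4.3.3 (variance trend, genotype as the only term, Benjamini-Hochberg adjustment at 0.05), a fit checked on simulated counts. The difference from the parent is that of both log2 fold changes, with standard errors added in quadrature. Transcripts, positions and gene types came from GENCODE M39, which held 14285 of the 14323 genes tested. Pseudogenes were aligned locally to the main transcript of the parent (Biopython 1.88, match 2, mismatch -3, gap opening -5, extension -2), and windows of 75 bases were compared with all transcripts found by BLAST 2.17.0. Alternatives were a pseudocount of 0.5 or 10, a minimum mean of 1 or 50, TMM factors, quantile normalization, limma with no variance trend, the recovered reads in edgeR 4.0.16, DESeq2 1.42.0 and limma-voom, trends over length and GC content taken out (splines, 5 degrees of freedom), a replicate block, and fits that lacked 1 library.

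The members and the gene lists were chosen with earlier results of these data known. Named genes are the 5 most abundant members, called members with a mean of at least 50, positive members, members over 2 standard errors from the parent with a mean of at least 50, those nearest the minimum level, families of 3 or more, their parents and host genes. *Rpl36a-ps3*, *Rpl36al*, *Rpl15-ps3*, *Rps12-ps3*, *Rpl9-ps6*, *Rplp2-ps1*, *Rpl19-ps1*, *Rpl31-ps9*, *Rps13*, *Rps16*, *Rpl37rt* and *Eif4ebp1* were chosen after their values or annotation were seen. One pseudogene enters all counts but is not reported here by name.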

Additional observations from a re-analysis of the deposited data

How the results depend on the processing

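The median log2 fold change of the pseudogenes was -0.88 and stayed negative in each of the 16 alternatives. It was -0.67 with a pseudocount of 10, -0.72 over the 19 genes with a mean of at least 50, -0.80 with quantile normalization, -0.73 with edgeR, -0.73 with DESeq2, -0.66 after removal of the length and GC trends, and -0.86 to -0.75 with 1 library left out. Chosen after seeing the data, it was -0.71 over the 42 pseudogenes with both genotype means at least 10 and -0.73 over the 45 with no library at 0. The 22 calls became 0 in limma without the variance trend, where no gene of the whole table was called, the smallest adjusted p of a pseudogene was 0.0592 and 27 pseudogenes had an unadjusted p below 0.05. They became 11 with DESeq2, which gave 14 pseudogenes no adjusted p, 13 after removal of the length and GC trends, and 12 to 23 with 1 library left out, 12 without either control library. Pseudogenes over 2 standard errors below the parent numbered 27, against 15 of 19 with a mean of at least 50, 11 with DESeq2 and 19 to 21 with 1 library left out. No pseudogene was called higher in any of these fits.

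With quantile normalization *Rpl17-ps8* turned to 0.015. After removal of the length and GC trends, 2 pseudogenes and 11 of 35 parents turned sign, *Rpl17-ps8* to 0.12, *Rpl19-ps1* to 0.058, *Rpl10* to 0.13, *Rpl13* to 0.10, *Rpl23a* to 0.023, *Rpl27* to 0.13, *Rpl36a* to 0.0024, *Rpl7a* to 0.066, *Rps13* to 0.085, *Rps15* to 0.026, *Rps16* to 0.12, *Rps26* to 0.054 and *Rps7* to 0.0088. With 1 library left out, 8 pseudogenes and 2 parents turned sign in at least 1 fit. The range was -0.14 to 0.38 for *Rpl36-ps12*, -0.23 to 0.062 for *Rpl17-ps8*, -3.57 to 0.87 for *Rpl10-ps5*, -4.44 to 0.38 for *Rps12-ps3*, -0.73 to 0.25 for *Rpl9-ps6*, -0.46 to 0.065 for *Rpl19-ps1*, -1.13 to 0.089 for *Rpl31-ps9*, -0.19 to 0.049 for *Rpl10* and -0.15 to 0.0087 for *Rps16*, and the other pseudogene is not named here. None was called in a fit in which its sign turned. The cause was not tested.

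The deviations of same-numbered libraries from their genotype mean had a correlation of -0.085 over 14323 genes. With 2 libraries per genotype the pairs mirror each other, so this single comparison cannot decide whether replicate numbers pair the libraries. With the replicate block, 26 pseudogenes were called lower, with the same median of -0.88. The share of all genes called was not computed for this fit or for those without a *Dnmt1* KO library. A change in the number of calls there cannot be told from a change over all genes. With 2 libraries per genotype, an exact permutation test of 1 gene cannot reach 0.05, and a library left out leaves 1 library that is assumed to vary like the others. A mean normalized count below 50 limits the precision in 30 of the 49 pseudogenes.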
